A study of Arabidopsis thaliana with 4 samples.

Results

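Gene-distal Pol V summits on the chromosome arms of Arabidopsis thaliana were the 1642 positions of a deposited Pol V summit list that lay outside every annotated gene and pseudogene, more than 1000 bp from every protein-coding gene, and outside the pericentromeric spans of the 5 chromosomes. These spans ran from 11.5 to 17.7 Mb on chromosome 1, 1.1 to 7.2 Mb on chromosome 2, 10.3 to 17.3 Mb on chromosome 3, 1.5 to 6.3 Mb on chromosome 4 and 9.0 to 16.0 Mb on chromosome 5. The 1642 summits were 14.3% of the 11478 in the list (95% Wilson interval 13.7 to 14.96%) and 22.5% of the 7294 on the arms (21.6 to 23.5%). The series itself holds 4 anti-Flag ChIP-seq libraries from inflorescences of soil-grown, untreated plants, 1 each from untransformed Col0 and from plants carrying DRD1-Flag, DMS3-Flag or RDM1-Flag. Their signals were not analysed here. The list was called once, on published Pol V ChIP-seq set against a no-antibody control, so no summit has a replicate error and the depth behind it is unknown. Intervals on shares cover counting error only.

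RNA-directed DNA methylation (RdDM) is the plant pathway that places new cytosine methylation at loci matched by small RNAs. Pol IV and the RNA-dependent RNA polymerase RDR2 make the precursors of the small RNAs, which are loaded into AGO4. Pol V makes a scaffold transcript at the target, on which AGO4 and the methyltransferase DRM2 are brought together. SUVH2 and SUVH9, which bind methylated DNA, and the DDR complex of DRD1, DMS3 and RDM1 are needed for Pol V to occupy its sites. On chromosome arms, RdDM is known for acting at short transposon remnants and the edges of larger elements, many of them close to genes. The summits described here are those on the arms that are not close to a protein-coding gene.

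Most windows around gene-distal summits contained sequence that is present elsewhere in the genome. A copy was an alignment of at least 100 bases at 80% identity or more outside the window itself, anywhere within the window and not necessarily over the summit. Of the 1642 windows reaching 250 bp to each side of a summit, 1099 (66.9%, 64.6 to 69.2%) had a copy. Families were formed from summits whose windows aligned to each other. Their 125 families took in 573 summits (34.9%), and a pair of them, the fourth and sixth in size, had high peak scores. The 61 bases around the summit are shown for the highest-scoring member of each, because they are what such a target looks like in the reference genome. Below them are the matching bases of the 4 next members by score that align across all of them. These matching bases need not include the member's own summit. Sequences are from RefSeq, build TAIR10.1, written 5′ to 3′. The first of each set is in lower case, and capitals in the others mark bases identical to it.
Family 4, score 1227, chr1:11204541-11204601, plus strand: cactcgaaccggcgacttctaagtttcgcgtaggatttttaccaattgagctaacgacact
Family 4, score 1027, chr2:379475-379535, plus strand: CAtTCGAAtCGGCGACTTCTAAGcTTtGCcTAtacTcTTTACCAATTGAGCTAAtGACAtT
Family 4, score 949, chr4:1007008-1007068, minus strand: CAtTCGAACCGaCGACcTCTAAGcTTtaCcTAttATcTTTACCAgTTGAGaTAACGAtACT
Family 4, score 946, chr3:8985749-8985809, minus strand: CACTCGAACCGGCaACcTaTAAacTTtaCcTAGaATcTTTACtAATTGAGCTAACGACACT
Family 4, score 736, chr2:9197143-9197203, plus strand: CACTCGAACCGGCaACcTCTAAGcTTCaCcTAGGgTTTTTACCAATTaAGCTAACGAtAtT
Family 6, score 1307, chr5:2240119-2240179, plus strand: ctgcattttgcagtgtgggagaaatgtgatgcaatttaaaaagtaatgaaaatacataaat
Family 6, score 1092, chr4:17249516-17249576, minus strand: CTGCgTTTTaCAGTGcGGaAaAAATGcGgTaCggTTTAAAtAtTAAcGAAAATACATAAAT
Family 6, score 966, chr1:29496518-29496578, plus strand: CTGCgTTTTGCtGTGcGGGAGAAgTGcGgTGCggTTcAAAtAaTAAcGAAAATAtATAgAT
Family 6, score 870, chr3:8082088-8082148, minus strand: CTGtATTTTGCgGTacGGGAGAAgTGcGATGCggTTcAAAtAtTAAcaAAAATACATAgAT
Family 6, score 868, chr2:438659-438719, plus strand: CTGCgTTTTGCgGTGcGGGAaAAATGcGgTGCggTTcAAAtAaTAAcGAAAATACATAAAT

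The summits of the aligned members were set against the place matched by the reference summit. In family 4 the displayed members were displaced from it by -37, -27, 17 and 10 bp, in the order shown and with a minus sign for a summit before it in the printed direction, and their identity to the reference over the aligned stretch was 78.1, 76.5, 87.1 and 83.6%. In family 6 the displacements were 36, 43, -12 and 26 bp, at identities of 81.9, 81.6, 82.8 and 85.6%. Over all members that could be aligned, the median distance between a summit and the matched reference summit was 50.5 bp in family 4 (20 members, of which 10 lay within 50 bp) and 37 bp in family 6 (12 members, of which 9 lay within 50 bp). Over all 174 such pairs, in every family, the median was 62.5 bp and 128 pairs (73.6%) lay within 100 bp. These distances were computed after the families had been seen, and the search for an alignment already brings the windows together, so they carry no test.

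Repeated sequence separated the gene-distal summits from the ground they could have occupied. The ground, called the territory here, is every determined base of the arms that meets the same conditions on genes, distance and span. It came to 8.78 Mb, or 9.97% of the 88.0 Mb of arms, and was tiled into 17517 windows of the same 501 bp. Per arm, a copy elsewhere was found for a mean of 69.3% of summit windows and 27.2% of territory windows. The share among summits ran from 61.0% on the right arm of chromosome 1 to 80% on the left arm of chromosome 2. The share in the territory ran from 20.5% on the left arm of chromosome 5 to 45.7% on the left arm of chromosome 2. The difference averaged 42.1 ± 5.08 percentage points (SD, 10 arms), ranged from 34.3 to 49.1, and was positive on 10 of 10 arms (exact sign-flip permutation test over arms, p = 0.00195, the smallest that 10 arms allow; p = 0.00977 after Benjamini-Hochberg adjustment over the 10 tests made). The difference was 23.7 in windows of 100 bp to each side and 25.5 when a copy needed 200 aligned bases (exact p = 0.00195 for both). The test asks if a difference recurs from arm to arm. Arms are parts of 1 genome and 1 peak call, not experimental replicates.

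**Figure D1:**
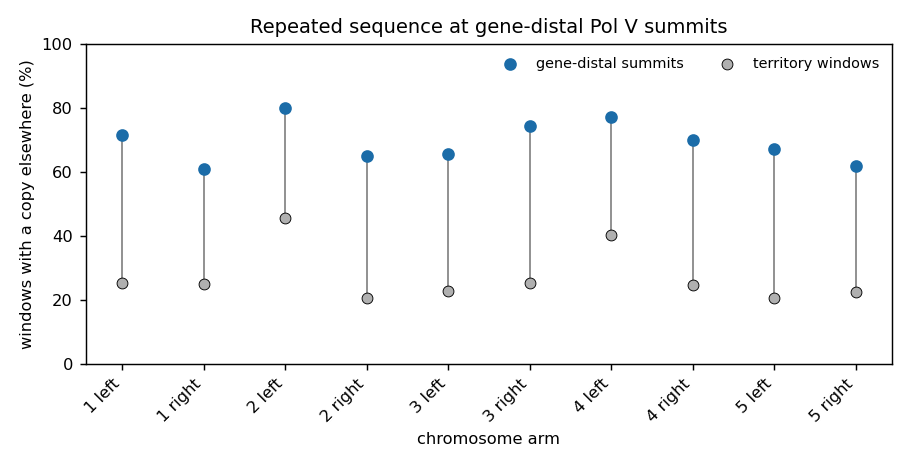
Share of 501 bp windows with a copy elsewhere in the genome, in percent, for gene-distal summits (blue) and for territory windows (grey) on each chromosome arm, with a line joining the pair. The blue point is above the grey one on 10 of 10 arms, by 34.3 to 49.1 percentage points.

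The excess held at every copy number examined. At least 10 copies were found for 550 summit windows (33.5%) and 11.4% of territory windows, and at least 50 for 198 (12.1%) and 4.71%. The most copies of any member was 402. Territory windows include those over the summits themselves, and among the 11999 of them with no listed summit within 1000 bp the share with a copy was 14.6%. Among the 1717 gene-distal summits inside the pericentromeric spans it was 75.4% (73.3 to 77.4%). Of the summit windows with copies, 84.9% had a copy in a pericentromeric span, against 74.1% of the territory windows with copies. Among the same windows with copies, a copy within 20 kb on the same chromosome was found for 15.3% at summits (168 of 1099) and 25.2% in the territory (1064 of 4220). These are shares of the windows with a copy, not of all windows.

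Copies of summit windows held Pol V summits more often than copies of summit-free windows. Averaged over the 1099 repeated summit windows, 20.6% of the copies contained a listed summit. For the 1756 repeated territory windows with no summit within 1000 bp, the share was 3.37%. By arm the values were 18.3 to 24.2% and 2.14 to 4.77%, without overlap, and higher for summits on 10 of 10 arms. Among windows with fewer than 10 copies, 43.9% of summit windows and 9.33% of summit-free windows had at least 1 occupied copy. A copy wholly within 1000 bp of the centre of a summit-free window was unoccupied by the choice of that window. Members of a family are linked by alignments and need not each match every other. Members that are copies of each other were counted from each side. The groups also differed in where their copies lay, as given above. This comparison was added after the data had been examined and was not tested.

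The families differed widely in score. The score is a whole number that the peak caller gave each peak, without a stated unit. It is compared only within the list, and was not tested as a measure of how much Pol V is bound. Family 1, the largest with 85 members on 9 arms, had a median of 104 and a range of 28 to 812. Family 2 (48 members) had a median of 171, family 3 (32) of 136.5, and family 5 (20) of 98. Family 4 (27 members on 10 arms) had a median of 509 and a range of 83 to 1227, and family 6 (14 members on 7 arms) a median of 696 and a range of 233 to 1307. Every member of family 6 thus scored above 201.5, the median of all gene-distal summits on the arms. Families 7 and 8 (9 and 8 members) had medians of 114 and 125.5. Members of a family share sequence, so they are not independent sites, and the families were compared without a test.

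**Figure D2:**
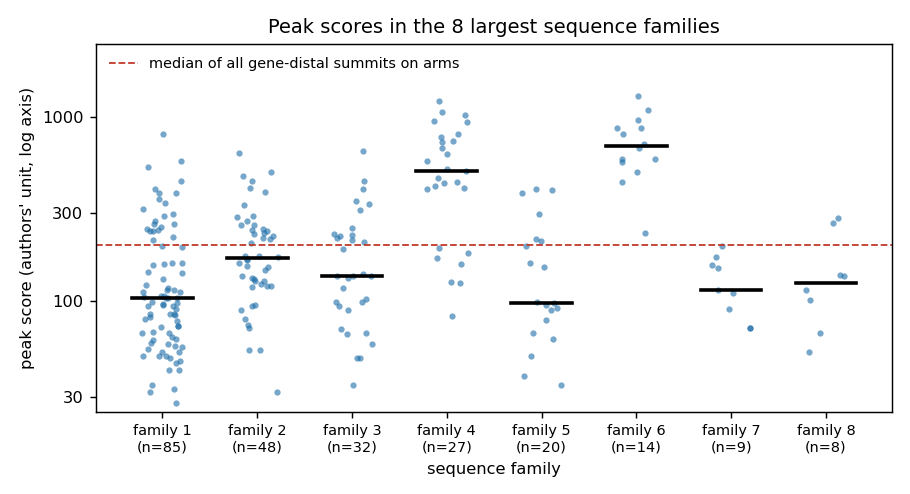
Peak score on a log axis, in the authors' unit, of each member of the 8 largest sequence families, with a black bar at the family median and a dashed line at 201.5, the median of all 1642 gene-distal summits. Families 4 and 6 have medians of 509 and 696, and the other 6 families have medians of 98 to 171.

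The share of copies that carried a summit also differed by family, counted for the highest-scoring member of each. A summit counted only inside the stretch aligned to that member's window, which need not cover the member's own summit. Members aligned to the reference at their own summit numbered 20 and 12 in families 4 and 6. They numbered 9, 8, 5 and 3 in families 2, 5, 3 and 1, and 1 each in families 7 and 8. The part of this in the shares was not tested. The reference window of family 4 had 83 copies, of which 42 (50.6%) contained a listed summit, and that of family 6 had 36 copies, of which 23 (63.9%) did. For the highest-scoring members of the other 6 families the share was 25.9% in family 5 (7 of 27 copies), 17.6% in family 2 (12 of 68), 4.76% in family 8 (2 of 42), 3.76% in family 3 (5 of 133), 1.94% in family 1 (2 of 103) and 1.61% in family 7 (1 of 62). Families 4 and 6 were rich in CG sites for their base composition. The observed number of CG sites over that given by the C and G content was 1.08 in family 4 and 1.04 in family 6, beside 0.976, 0.957 and 0.944 in families 1, 8 and 7, and 0.728, 0.679 and 0.635 in families 3, 2 and 5. No transposable element annotation was used here, so the families carry numbers and no element names.

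Of the 5 printed sequences of family 4, 4 hold TCGAACC, which on the other strand reads GGTTCGA. These letters are the core of the B box, the internal promoter element of tRNA genes, and short interspersed elements derived from tRNA genes carry the same element. The motif was searched on both strands after the sequences had been seen. It was present in 379 of 625 annotated tRNA genes (60.6%), in 11 of the 27 members of family 4, and in 0 members of the 7 other families among the largest 8. It lay a median of 34 bp from the summit in those 11. Over all gene-distal summits, 73 windows (4.45%, 3.55 to 5.55%) had it, against 3.23% of territory windows, with the higher share at summits on 9 of 10 arms. Outside family 4 the share was 3.84%. Windows with the motif had a median score of 278, or 253 outside family 4, and those without it 200. A match in a window is a description of its letters only.

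The median peak score of the gene-distal summits was 201.5, the quartiles were 104 and 388, and the extremes 28 and 1605. They were lower than those of summits directly upstream of genes on the same arms, meaning summits outside genes and within 1000 bp of the start of a protein-coding gene. Per arm, the medians averaged 202 for the gene-distal summits and 257 for the 2288 upstream summits. The difference of medians was -54.95 ± 37.5 (SD, 10 arms), was negative on 10 of 10 arms, and ranged from -110 on the left arm of chromosome 2 to -3 on the right arm of chromosome 3 (exact sign-flip permutation test, p = 0.00195, adjusted p = 0.00977). With a distance of 2000 bp in place of 1000 bp it was -28.25 (exact p = 0.201). Against all 5652 other summits on the arms, which include those inside genes, the medians averaged 202 and 192, the difference was 10.7 ± 27.4 with 8 arms higher and 2 lower, and the test did not pass (exact p = 0.246, adjusted p = 0.273). This last result depended on several choices. The difference was 17.9 without the left arm of chromosome 2, which has 45 gene-distal summits (exact p = 0.0117), 45.55 with a distance of 500 bp (exact p = 0.00391), and -7.65 among scores at or above the median of the list (exact p = 0.6).

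**Figure D3:**
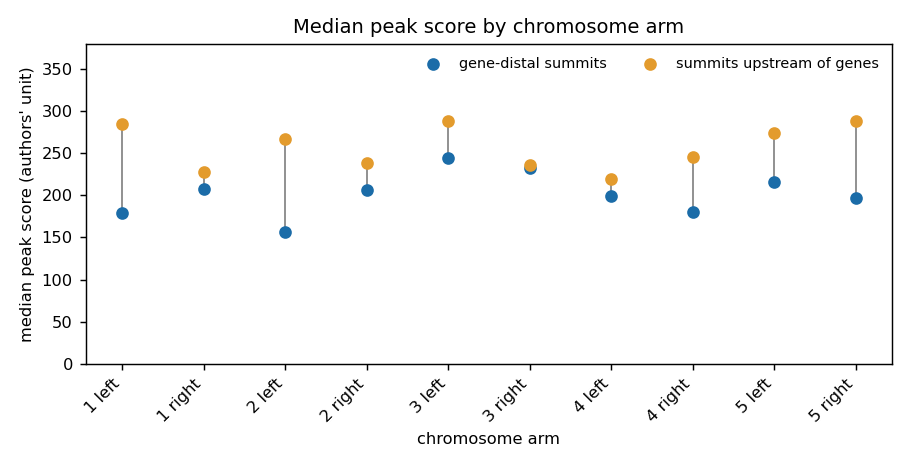
Median peak score on each chromosome arm, in the authors' unit, of gene-distal summits (blue) and of summits within 1000 bp upstream of protein-coding genes (orange), with a line joining the pair. Blue lies below orange on 10 of 10 arms, by 3 to 110.

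Gene-distal summits in the pericentromeric spans scored lower than those on the arms of the same chromosome. The arm and pericentromere medians were 199 and 130 on chromosome 1, 201.5 and 114 on chromosome 2, 245 and 126 on chromosome 3, 183 and 130 on chromosome 4, and 200 and 111 on chromosome 5. The difference averaged 83.5 ± 24.7 (SD, 5 chromosomes) and had 1 sign on 5 of 5 chromosomes, for which the smallest two-sided exact p is 0.0625 (adjusted p = 0.083). Within the list as a whole, 946 gene-distal summits on the arms (57.6%, 55.2 to 59.98%) were at or above its median of 169. They made up 191 of the 1147 highest-scoring summits (16.7%, 14.6 to 18.9%), beside 14.3% of the whole list. That list includes the lower-scoring gene-distal summits of the pericentromeric spans, and these shares were not tested.

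Score varied with how repeated the sequence was. The median was 216 for the 543 windows without a copy, 232 for the 549 with 1 to 9 copies, 203 for the 352 with 10 to 49 and 127 for the 198 with 50 or more. Windows in which every 50-mer was unique in the genome (1063, or 64.7% of members against 84.4% of territory windows) had a median of 239, and the other 579 had 162. The authors kept only reads that mapped to 1 place, and the part of this in the scores was not tested. Base composition moved with score as well. GC content in the window was 29.0% where the score was 28 to 104, 29.6% for 105 to 201, 30.3% for 202 to 388 and 31.1% for 389 to 1605. The CG ratio did not follow the same course, with 0.885, 0.891, 0.852 and 0.854 in the same order.

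Over the whole window, the tests of base composition against the territory did not pass after adjustment, while the GC difference was larger nearer the summit and at higher scores. Mean GC content per arm in the territory was 29.7%, and at summits it was higher by 0.33 ± 0.38 percentage points, with 8 arms higher and 2 lower (exact sign-flip permutation test, p = 0.0254, adjusted p = 0.0508). The ratio of observed to expected CG sites was 0.887 and 0.850, a difference of 0.037 ± 0.047 with 8 arms higher and 2 lower (exact p = 0.0312, adjusted p = 0.0521). Within 100 bp of the summit the differences were 1.21 percentage points of GC (exact p = 0.00195) and 0.0785 in the CG ratio (exact p = 0.00781). At scores at or above the median of the list the GC difference was 1.07 (exact p = 0.00195), and against territory windows with no summit within 1000 bp it was 0.19 (exact p = 0.348). CG sites are the best known context of plant cytosine methylation, and CHH sites, where H is any base but G, are the context in which RdDM is most visible. Pooled over the windows, CG, CHG and CHH cytosines numbered 3.92, 3.15 and 22.8 per 100 bp at summits and 3.74, 2.95 and 22.9 in the territory.

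The composition was uneven along the window. In the 100 bp before and the 100 bp after the summit, GC content was 30.8% and 30.6%, while in each step of 100 bp from 200 to 2000 bp away it lay between 28.6 and 29.3%. The CG ratio in the same central steps was 0.914 and 0.896. After the summit the next 4 steps had 0.811, 0.839, 0.873 and 0.878, and before it the 4 steps going outward had 0.847, 0.833, 0.861 and 0.901, so the ratio at 401 to 500 bp before the summit was as high as in a central step. These steps hold bases outside genes only, were pooled over all members, and were not tested.

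**Figure D4:**
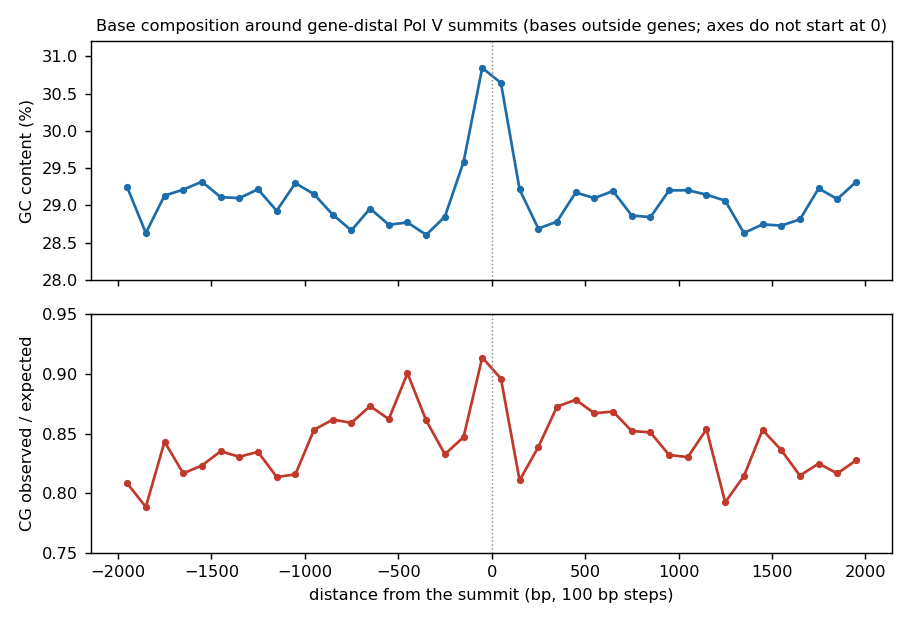
GC content in percent (upper) and observed over expected CG sites (lower) in steps of 100 bp by distance from the summit, pooled over 1642 gene-distal summits and restricted to bases outside genes, on axes that do not start at 0. GC content is 30.8% and 30.6% in the central steps and 28.6 to 29.6% elsewhere.

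Inverted and tandem repeats, both known to yield small RNA precursors in plants, were rare. A perfect inverted repeat with arms of at least 15 bases was found in 64 windows (3.90%, 3.06 to 4.95%). Of these windows, 8 belonged to family 3, so the 64 are not all independent sites. Per arm the share averaged 4.01% at summits and 2.74% in the territory, a difference of 1.27 ± 1.78 percentage points with 8 arms higher and 2 lower (exact sign-flip permutation test, p = 0.0117, adjusted p = 0.0342). The arms of chromosome 5 had the largest differences, 5.45 on the right and 3.24 on the left, with -0.322 to 0.998 on the other 8, and without the right arm the mean was 0.806 (exact p = 0.0234). The call was lost within 100 bp of the summit (0.0638, exact p = 0.848), with repeat arms of 20 bases (0.436, exact p = 0.219), at 2000 bp from genes (1.14, exact p = 0.311) and at scores at or above the median of the list (1.17, exact p = 0.182). A tandem repeat was found in 26 windows (1.58%, 1.08 to 2.31%). Per arm the share averaged 1.68% at summits and 2.63% in the territory, with summits lower on 9 of 10 arms (difference -0.954 ± 1.16, exact p = 0.0137, adjusted p = 0.0342). Among windows with at least 90% unique 50-mers the sign turned, to 0.110 (exact p = 0.756), and the call was lost against territory windows with no summit within 1000 bp (-0.710, exact p = 0.348) and at 500 bp from genes (-0.742, exact p = 0.0781). The highest-scoring member with an inverted repeat, at chr3:21413343 with a score of 993, lay 1439 bp upstream of AT3G57800, a basic helix-loop-helix gene. Its repeat is shown with the arms in capitals, and that of the highest-scoring member with a tandem repeat, at chr2:1083391 with a score of 484, with the second and the fourth unit of 29 bases in capitals.
Inverted repeat, chr3:21413424-21413479, plus strand: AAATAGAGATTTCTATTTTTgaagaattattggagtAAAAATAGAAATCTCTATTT
Tandem repeat, chr2:1083141-1083256, plus strand: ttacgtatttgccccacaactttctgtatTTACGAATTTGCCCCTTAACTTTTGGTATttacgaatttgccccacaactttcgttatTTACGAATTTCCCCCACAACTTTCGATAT

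The highest-scoring gene-distal summits were spread over the arms and did not share 1 kind of sequence. The highest score, 1605, was at chr3:986628, 313 bp from AT3G03855, a transcribed pseudogene of a disease resistance protein. This summit lay 2860 bp downstream of SAUR26, a small auxin-responsive gene, in a window with 6 copies. The 61 bases around the summit are shown with the CG site in capitals, since it has the highest score of the set and they hold 1 such site.
Score 1605, chr3:986598-986658, plus strand: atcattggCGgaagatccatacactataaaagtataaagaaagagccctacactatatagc

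One of the 10 highest-scoring members is not reported here. Among the others, the reference members of families 6 and 4 held 1307 and 1227. The first of these, at chr5:2240149, lies between the convergent genes ATS3, for an embryo-specific protein, and GA20OX3, a gibberellin biosynthesis enzyme. The second, at chr1:11204571, lies 4430 bp upstream of AT1G31310. A score of 1237 at chr5:21155769 lay 1374 bp upstream of BAG1, a co-chaperone gene, with 0 copies. The summit at chr4:631040, with 1225, lay downstream of PPa5, whose annotated product name is pyrophosphorylase 5, in the window richest in GC of the 10 (42.1%). It was 96 bp from the annotated pseudogene AT4G01490, which its window reaches. Others were 1211 at chr1:21470311, 1806 bp upstream of the amino acid transporter gene CAT2, 1191 at chr1:28731977, 1190 at chr4:10648815, and 1184 at chr3:5835409. The one at 1190 lay between the divergent disease resistance genes AT4G19520 and AT4G19530. Copies in the windows named here numbered from 0 to 83.

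Arms without a member among the 10 had their highest gene-distal scores at 1027 on the left arm of chromosome 2, 5703 bp upstream of EXGT-A3, at 1081 on the right arm of chromosome 2, 1525 bp downstream of the chitinase gene AT2G43620, and at 1083 on the right arm of chromosome 3, 2123 bp upstream of GIS, a zinc finger gene of trichome development. The summit near EXGT-A3, at chr2:379468, belongs to family 4. The second family 4 sequence printed above comes from its window and starts just after this summit. At the other end, 4 members shared the lowest score of 28, of which 3 had a copy elsewhere. The first 3 of them by position had 11, 0 and 96 copies. The highest-scoring members of families 1, 2 and 3 scored 812, 640 and 651. They lay 2062 bp downstream of AT5G54240, 1596 bp downstream of AT1G12120 and 1753 bp upstream of RLP38, a receptor-like protein gene.

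The values at the distance limit are given as a description. The 3 members nearest to 1000 bp, at 1002, 1002 and 1003 bp from ZAT11, BEH3 and AT1G69250, scored 230, 526 and 317. The 3 summits just outside the rule, at 1000, 1000 and 999 bp from DEG15, HAT14 and AT4G12850, scored 113, 417 and 296. Members lay a median of 1694.5 bp from the nearest protein-coding gene, with quartiles of 1279 and 2400 bp.

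No difference in summit density was detected between gene-distal bases and intergenic bases near genes once the available ground was counted. Gene-distal territory held 187.1 summits per Mb, and the 18.6 Mb of intergenic bases within 1000 bp of a protein-coding gene held 3211 summits, or 172.9 per Mb. Per arm the densities averaged 206.6 and 211.2, a difference of -4.62 ± 71.9 per Mb with 6 arms higher and 4 lower (exact sign-flip permutation test, p = 0.986). The left arm of chromosome 2 stood apart with 257.9 gene-distal against 461.6 near-gene summits per Mb, and without it the difference was 17.5 (exact p = 0.0312). Within the territory, density was 194.8 per Mb at 1000 to 1500 bp from a gene, 190.2 to 2000 bp, 184.3 to 3000 bp, 171.2 to 5000 bp and 164.2 beyond. The difference between territory up to 2000 bp and beyond, 25.7 ± 39.4 per Mb per arm with 8 arms higher, did not pass the test (exact p = 0.0664, adjusted p = 0.083), although it did without the left arm of chromosome 5 (31.54, exact p = 0.00781). Median scores in the 5 distance classes were 194, 208.5, 206, 200.5 and 219. The share of summit windows with a copy was 64.6 to 72.5% in these classes, against 21.8 to 24.1% of territory windows in the first 4 and 45.4% beyond 5000 bp.

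The density of gene-distal summits was alike on most arms. It lay between 164.6 and 196.6 per Mb of territory on 8 arms, with 257.9 on the left arm of chromosome 2 and 349.3 on the left arm of chromosome 4. These last arms are the shortest, with 45 and 57 gene-distal summits, and had the highest shares of repeated territory (45.7 and 40.2%).

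By the orientation of the flanking genes, 641 summits (39.04%) lay between divergent genes, 856 (52.1%) between genes in the same direction and 143 (8.71%) between convergent genes, against 41.9, 50.7 and 7.34% of territory windows. The density was 174.4, 192.4 and 222.1 per Mb in that order, and the median score was 218, 194 and 207. An annotated pseudogene lay within 1000 bp of 186 summits (11.3%), against 6.80% of territory windows. A long non-coding RNA gene did so for 8.77 and 9.66%, and a miRNA gene for 1.52 and 1.38%. A tRNA gene lay that close to 6 summits (0.365%) and to 0.953% of territory windows.

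The nearest protein-coding genes of the 1642 summits were 1371 distinct genes. Product names were compared with those of the 7097 genes that border territory. Defensin-like names made up 0.729% (0.397 to 1.34%) against 0.395%, disease resistance 0.948% against 0.620%, F-box 2.77% (2.03 to 3.78%) against 2.16%, and cytochrome P450 1.46% against 1.31%. Kinase made up 4.52% (3.54 to 5.75%) against 5.78%, receptor 0.584% against 1.099%, homeobox 0.511% against 0.789%, and AGAMOUS-like, the MADS-box family of floral regulators, 0.0729% (0.0129 to 0.412%) against 0.324%, which was 1 gene. Transcription factor, zinc finger and hypothetical names made up 1.90, 2.63 and 0.875% against 2.09, 2.28 and 0.719%. The interval contained the bordering share for F-box and ended just beside it for defensin and kinase, and the shares were not tested.

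Short motifs known from promoters were also counted in the summit windows, on both strands. CATGCA, the core of the RY element of seed gene promoters, was found in 282 windows (17.2%, 15.4 to 19.1%) and in 25.6% of territory windows, and the share was lower at summits on 10 of 10 arms. The G-box CACGTG had 5.97% against 7.51%, with summits higher on 1 of 10 arms, and ATATAT 60.4% against 64.4%, also on 1. TGGGCC, a motif of ribosomal protein and cell cycle promoters, had 8.95% against 6.98% and GAGAGA 29.3% against 25.4%, each higher on 9 of 10 arms. AAAAAA (89.7% against 86.7%), AAACCC (24.6% against 22.8%) and TATAAA (73.6% against 74.6%) were higher at summits on 8, 7 and 3 arms. Shares were not tested, and a motif not found says only that its letters were not in the window.

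Most gene-distal summits had another listed summit within 3000 bp. Another listed summit lay within 3000 bp of 1074 of them (65.4%, 63.1 to 67.7%), against 56.0% of the other summits on the arms and 76.5% of the gene-distal summits in pericentromeric spans. The median distance to the nearest summit was 1673, 2376 and 1338 bp in the same order. Members with such a neighbour had a median score of 176 and the 568 without one had 261.5. The other summits on the arms include 2441 inside genes. Summit density was 187.1 per Mb in the territory and 82.8 per Mb over the arms as a whole. The shares with a neighbour were not set against territory windows and were not tested. The members fell into 1204 gaps between protein-coding genes, of which 897 held 1 member, 218 held 2 and 89 held more.

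The fullest gap held 11 gene-distal summits in 26273 bp of chromosome 4, between PUB8 (AT4G21350), a plant U-box gene, and AT4G21366, a protein kinase gene. It contains the pseudogenes AT4G21360 and AT4G21363 and the miRNA genes MIR4239, MIR1887 and MIR867. A run of 9 members, each within 3000 bp of the next, covered 12270 bp from chr4:11369827 to chr4:11382097. Their scores along the chromosome were 445, 259, 243, 672, 75, 239, 739, 114 and 136. The first 3 of the run were also the members farthest from any protein-coding gene in the set, at 12560, 12357 and 10244 bp. High and low scores were interspersed in the run, and its windows ranged from 0 to 102 copies. The windows with 102 and 99 copies scored 259 and 114, and those of the highest 2 scores, 739 and 672, had 15 copies and 1.

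**Figure D5:**
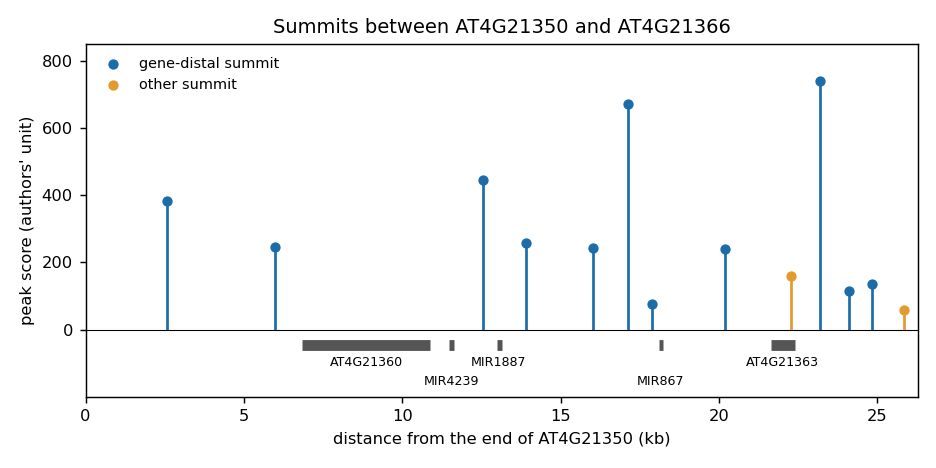
Peak score, in the authors' unit, of the 13 listed summits between AT4G21350 and AT4G21366 by distance in kb from the end of AT4G21350, with annotated pseudogenes and miRNA genes as bars below the axis. Blue marks the 11 gene-distal summits, of which the highest score 672 and 739, and orange the 2 other summits.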

How the data were processed

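The authors aligned the published Pol V and control reads to TAIR10 with Bowtie (1.0.0 in the submitters' processing notes), kept reads mapping to 1 place, removed duplicates with SAMtools (0.1.19) and called peaks with MACS2. Only peaks past their limits on q-value and on fold enrichment over the no-antibody control are in the list. A window or copy without a summit is therefore without a listed summit only. The deposited score is a whole number per peak whose unit the authors do not name. It was not treated as a read count, and reads from identical repeats were not kept. Without 1 blank record the list gave 11478 summits, and 0 columns of sample values went unused. Positions were placed on RefSeq TAIR10.1.

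The members, lists and tests were chosen with earlier results of these data known. Windows reached 250 bp to each side. Copies came from BLAST 2.17.0 (word size 11, e-value 1e-05, at least 100 bases at 80% identity). Tandem repeats had a period up to 200 and a lag-matching score of at least 40. Families link windows whose alignments overlap by at least 100 bases. Differences were taken within 10 arms and tested by an exact two-sided sign-flip permutation test, adjusted over 10 tests at a threshold of 0.05, and intervals are 95% Wilson intervals. The statistics were tested on simulated data. Alternatives were other distances, windows, repeat limits, score limits, merged summits and leaving out each arm. Occupied copies, summit displacements, score by copy number and the tRNA promoter motif were additions made with the data in view. Sites were named by rule, being the 10 highest scores, the highest on each arm, the 3 lowest, the 3 on each side of 1000 bp, the 3 farthest from genes, the longest run, and the highest score with each repeat type and in each of the 3 largest families. One site that the rule names is not reported here. Families 4 to 8 and the fullest gap were singled out after their values were seen. Python 3.11.15, NumPy 2.4.6, SciPy 1.17.1, Numba 0.67.0, Biopython 1.88 and matplotlib 3.10.9 were used, with seed 20190902.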

Additional observations from a re-analysis of the deposited data

How the results depend on the processing

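Of 145 alternatives, 119 left a result on the same side of an exact p of 0.05 with the same direction, and the share with a copy elsewhere did so under all 18 of its own (23.7 percentage points within 100 bp of the summit to 50.7 against windows without a summit). A call in this section means an exact p below 0.05 before adjustment. GC content and the CG ratio had such a call, although neither passed after adjustment. With 500 bp from genes, the score difference from other arm summits was 45.55 (past 0.05), the GC difference 0.188 and the tandem difference -0.742 (both no longer past it), and the density difference 22.2, of opposite sign. With 2000 bp, the difference from upstream summits was -28.25, GC 0.280, CG ratio 0.0354 and inverted repeats 1.14, each losing its call. With scores at or above the median of the list, the difference from other arm summits turned to -7.65, and the CG ratio (0.0206) and inverted repeats (1.17) lost their calls, while GC rose to 1.07. Against windows without a summit, GC (0.187) and tandem repeats (-0.710) lost their calls. Tandem repeats turned to 0.110 at unique sequence, and inverted repeats lost their call within 100 bp (0.0638) and with arms of 20 bases (0.436). Leaving out 1 arm at a time gave 6.33 to 17.9 for the score against other arm summits, 0.289 to 0.411 for GC, 0.806 to 1.45 for inverted repeats, 0.0267 to 0.0446 for the CG ratio, which lost its call without any of 6 arms, -9.29 to 17.5 for density against near-gene bases and 16.7 to 31.54 for density by distance. The cause of these changes was not tested. Differences were paired by chromosome arm or chromosome only. No pairing of libraries or peak calls was possible because each label has 1 library and the list comes from 1 peak call. Depth is unknown, and 1 peak call gives no error for a single summit.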
